A study of Drosophila melanogaster with 6 samples.

Results

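Long noncoding RNA genes were followed in wing imaginal discs of Drosophila melanogaster larvae in which the histone demethylase gene lid, now named Kdm5, was knocked down. They were taken as the genes whose symbol starts with lncRNA:, or with asRNA: for transcripts antisense to another gene, on a probe set paired with that 1 symbol, leaving out the dosage compensation RNAs roX1 and roX2. A probe set is the group of short oligonucleotides that reads a transcript on the array. The rule found 88 genes among the 11982 genes that have such a probe set, 75 with the lncRNA prefix and 13 with the asRNA prefix. They were read by 105 probe sets of 18769 tested. For the 12 genes read by several probe sets, the brightest on average stands for the gene, and the other 76 have 1 each.

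The samples were whole discs from wall-climbing larvae of the third instar, 30 discs per sample, grown at 25 °C, and amplification began from 25 ng of total RNA. In LID RNAi discs, larvae that carry the lid k06801 allele also express a hairpin against lid under the ubiquitous act5C-Gal4 driver. In GFP RNAi discs the same driver expresses a hairpin against GFP, in a w1118 background. Discs titled wild type have no RNAi in the labels, although their background field names w1118 with the act5C-Gal4 driver too. Each group had 2 arrays, and the allele and the hairpin against lid come together, so their effects cannot be told apart. Whether replicate arrays stem from separate dissections is not in the labels, so p-values measure only the spread between these samples, which may be technical.

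Long noncoding RNAs are transcripts without a long open reading frame. Some act on chromatin or on neighbouring genes, some are the precursors of microRNAs, some run antisense to a coding gene, and for most Drosophila members no function is known. Kdm5 removes methyl groups from lysine 4 of histone H3, a mark found at active promoters of coding and noncoding genes. The Kdm5 transcript itself read 8.36 and 8.04 in LID RNAi discs, against 10.32 and 10.45 in GFP RNAi discs and 10.42 and 10.33 in wild type discs. All levels are log2 values made with RMA, changes are differences of group means on that scale, and both LID RNAi readings of Kdm5 lie below all 4 control arrays.

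Of the 15 wing disc markers listed, 11 were measured, and all 11 lay above background in every group. Background was set at 4.82, the 95% point of 27 probe sets for bacterial transcripts. Lists for other cell types differed in how far they moved with the groups. Linear signals summed over a list were higher on both LID RNAi arrays than on all control arrays for haemocytes, muscle and trachea. They were lower for eye disc and overlapped for the others. In the trachea, fat body, neuron and glia, eye disc, leg disc and testis and germline lists no gene passed. Their median changes in LID RNAi against either control lay between -0.1 and 0.21. Haemocyte markers were higher in LID RNAi for 12 of 13 genes against GFP RNAi and 10 of 13 against wild type. Their linear signals summed, in units of 1000, to 25.2 and 21.3 on the LID RNAi arrays, 12.8 and 16.2 on those of GFP RNAi and 16.2 and 10.1 on those of wild type. Against wild type, lz passed as higher (2.2) but PPO3 as lower (-0.85, limma adjusted p = 0.0346 and 0.0292). PPO3 also passed as lower in GFP RNAi against wild type (-0.87, adjusted p = 0.0423). Markers of muscle and its precursors were higher for 4 of 5 genes against either control, and sls passed against wild type (1.11, limma adjusted p = 0.0414). Their sums were 5 and 5.01 in LID RNAi, 3.92 on both GFP RNAi arrays and 3.18 and 3.25 in wild type. Salivary gland markers were higher for 8 of 9 genes against GFP RNAi and 7 of 9 against wild type, and ng1 passed in both (2.28 and 2.71, limma adjusted p = 0.0338 and 0.00846). Their sums varied within groups, at 4.56 and 10.3 in LID RNAi discs, against 7.75 and 4.06 in GFP RNAi discs and 5.27 and 5.93 in wild type discs. Gut markers were higher for 2 of 5 genes against GFP RNAi and 1 of 5 against wild type, and summed to 0.963 and 0.39 on the LID RNAi arrays, 0.415 and 0.593 on those of GFP RNAi and 2.45 and 0.641 on those of wild type, with LysX and Jon99Ci within background, although LysX passed as lower in both (-1.62 and -1, limma adjusted p = 0.0362 and 0.0438). Of 12 testis and germline markers, 6 lay above background in LID RNAi and 7 in each control, with CycB3 and mia brightest at means of 11.28 and 9.48. can, tomboy20, Mst84Da, Mst87F and vas lay within background in all groups. aub differed by -1.7 from GFP RNAi and -1.64 from wild type and did not pass (limma adjusted p = 0.192 and 0.12). The part of these cell types in the results below was not tested, and in whole discs fewer cells of a type and less RNA per cell cannot be told apart.

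LID RNAi replicate 2 stood apart from the other arrays. The gap between 3′ and 5′ control probe sets was 1.2 for GAPDH and 0.64 for actin on it, against 0.88 to 1.06 and 0.38 to 0.57 on the other 5 arrays. It was the highest or lowest of the 6 arrays for 46 of the 88 long noncoding RNA genes (52.3%), and for 47.9% of all probe sets. Across the 88 genes, r was 0.991 between replicate 1 of LID RNAi and replicate 1 of GFP RNAi, and 0.979 between both LID RNAi arrays. It was 0.973 between both GFP RNAi arrays and 0.992 between both wild type arrays, so over these genes the LID RNAi pair was not the least alike. Over all probe sets the LID RNAi pair was the least alike, with r = 0.99, against 0.995 for the GFP RNAi pair and 0.995 for the wild type pair. These values describe genes and probe sets, which are not independent replicates.

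Many members were read near background. In LID RNAi 51 of 88 had a group mean above it, while GFP RNAi had 53 such members and wild type 51. All 3 group means lay above background for 48 members (54.5%) and none of them for 33 (37.5%), against 72.1% and 22.8% of the 11982 genes with a probe set of 1 symbol. The median member level over the arrays was 5.16, against 8.25 for those genes. For the 33 members within background, the arrays cannot tell a low level from none. Among members read brightly, lncRNA:CR42862 had 13.27 and 12.98 in LID RNAi discs, against 13.34 and 13.25 in GFP RNAi discs and 13.21 and 13.19 in wild type discs. It differed by -0.17 ± 0.12 (SE) from GFP RNAi and by -0.07 ± 0.12 from wild type (limma adjusted p = 0.653 and 0.811). Brightness depends on the probes and gives no order of abundance between genes.

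**Figure D1:**
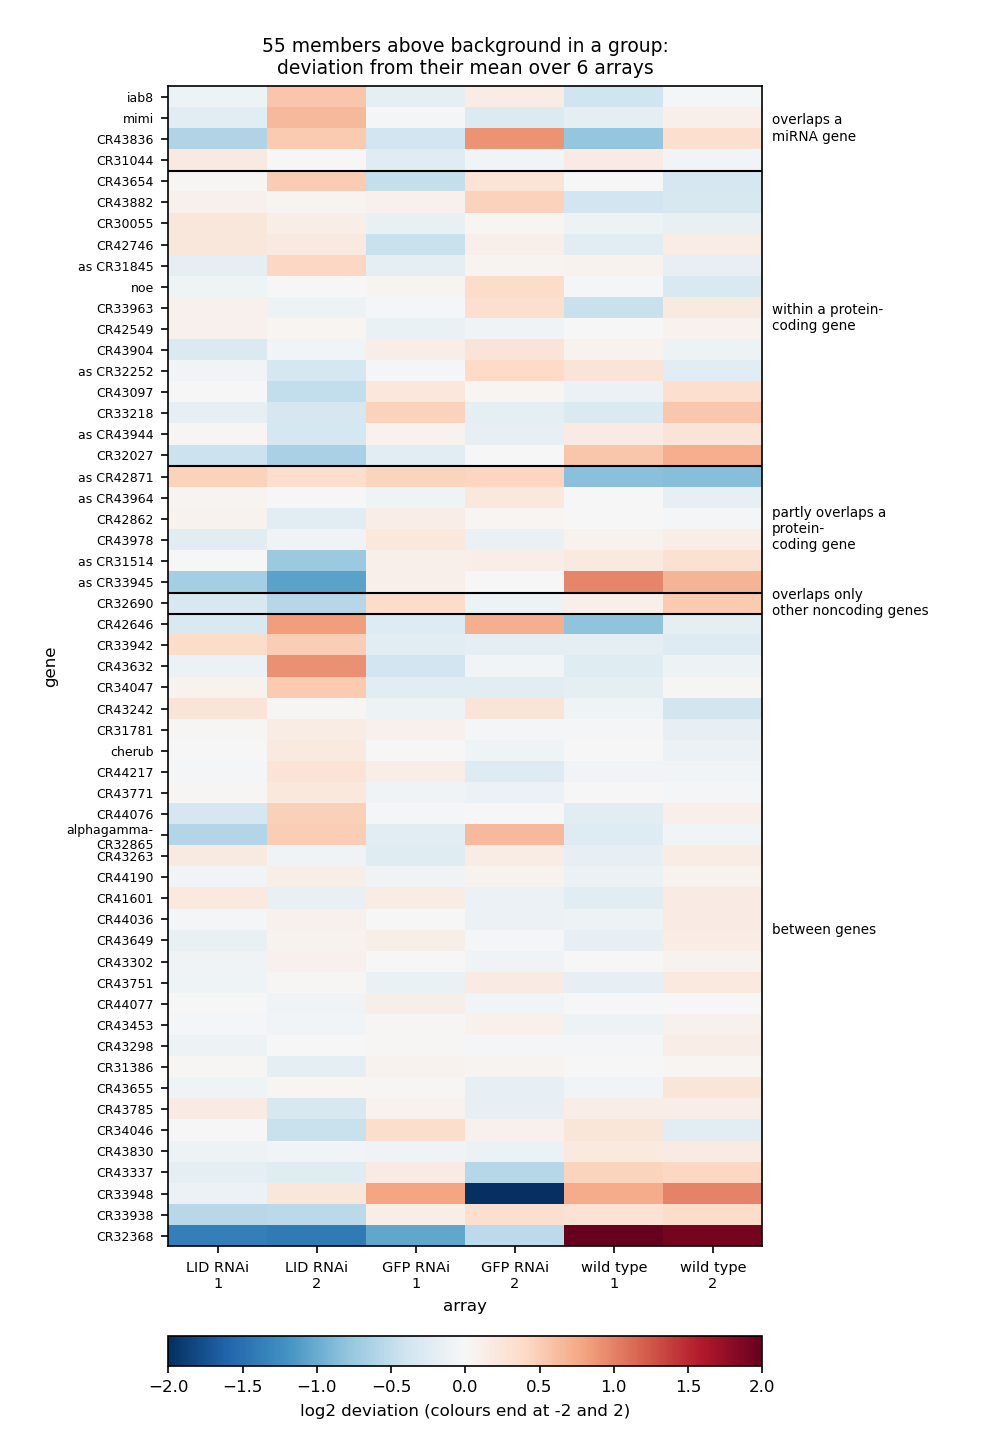
Deviation of each array from the gene's mean over the 6 arrays, in log2, for the 55 members with a group mean above 4.82 (rows) on the 6 arrays (columns), grouped by position in the RefSeq gene table. Most rows are pale, and the strongest colours are those of CR32368, high on both wild type arrays, and of CR33948, low on GFP RNAi replicate 2 alone.

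By their place in the RefSeq gene table (Release 6 plus ISO1 MT, where all 88 were found under the same symbol), 46 members lie between genes. A further 23 lie within a protein-coding gene, 9 overlap one in part, 7 overlap a microRNA gene and 3 overlap only other noncoding genes. The table gives no strand. The sources used here do not say whether strand was kept in amplification, so a member and the gene it overlaps may share signal.

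LID RNAi against GFP RNAi asks which genes differ between discs that carry the same driver. Among the 88 genes 0 passed the threshold, an adjusted p under 0.05 in limma over all 18769 probe sets, where 0.469% of all probe sets passed (0.165% higher and 0.304% lower). At an unadjusted p under 0.05 the count was 7 (7.95%), against 12.4% of all probe sets. An intensity trend with a robust prior called 1 member, lncRNA:CR33938, and a test restricted to probe sets with a mean above background called 2, CR33938 and lncRNA:CR33942. Over all probe sets tested, the shares called were 1.5% and 1.46% in these fits, also above the 0.469% of the first. Of the 88, 51 passed that restriction, CR33942 only through its LID RNAi arrays. A change of at least 1 in log2 was reached by 0 members, against 1.98% of all probe sets. The median change was 0.01, as over all probe sets, with 47 members above 0 and 41 below. The arrays of the groups did not overlap for 29 members (33%), against 41.8% of all probe sets.

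**Figure D2:**
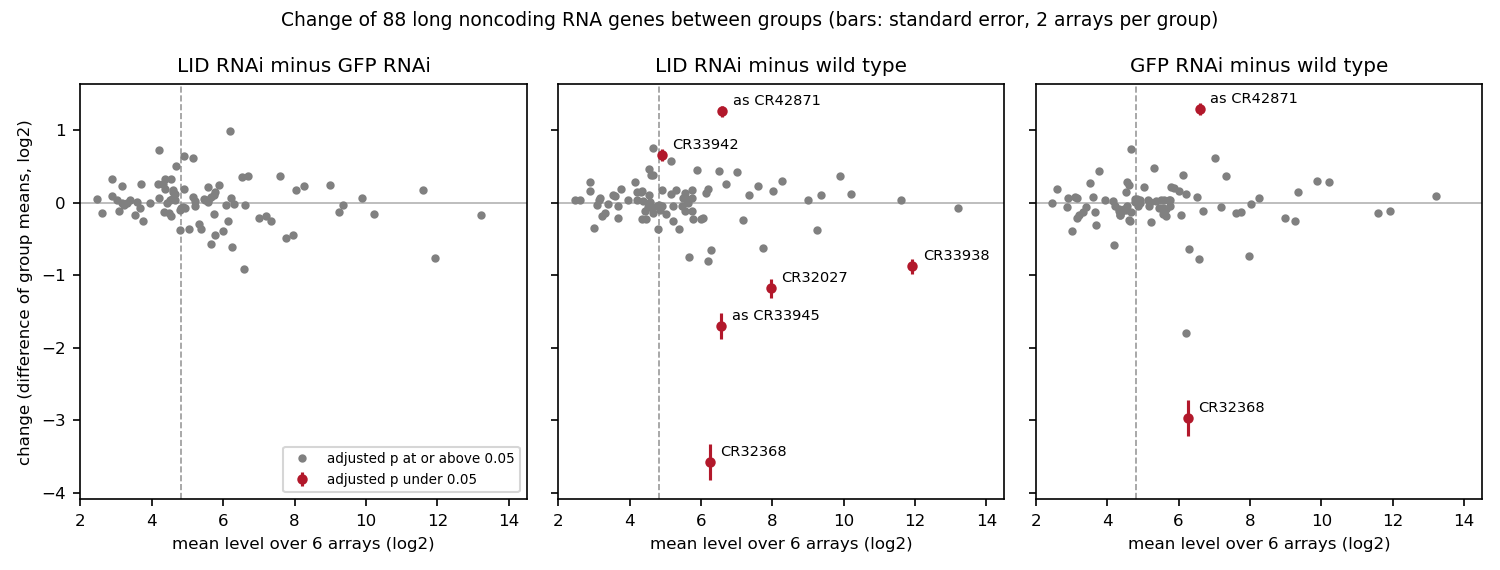
Change of each of the 88 genes (y axis, difference of group means in log2) against its mean level over the 6 arrays (x axis, log2) for the 3 comparisons, with genes past the threshold in red with their standard error and the background level as a dashed line. LID RNAi against GFP RNAi has 0 red points, LID RNAi against wild type 6 and GFP RNAi against wild type 2.

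The members nearest to the threshold in that comparison were CR33938 and CR33942, which both lie between coding genes. CR33938 is placed between the cuticle protein genes Ccp84Ac and Ccp84Ab. Its level was 11.36 and 11.38 on the LID RNAi arrays, 12.04 and 12.24 on those of GFP RNAi and 12.2 and 12.29 on those of wild type. Both LID RNAi arrays thus lay below all 4 control arrays, and the controls overlapped each other. The change was -0.77 ± 0.1 (SE, n = 2 arrays per group) against GFP RNAi (limma adjusted p = 0.0708), which is 58.7% of the GFP RNAi level. With the intensity trend and robust prior together its adjusted p was 0.0129, and with the restriction to brighter probe sets it was 0.0465. Ccp84Ac, the neighbour with a probe set of its own, stood at 4.8 in LID RNAi discs, 4.77 in GFP RNAi discs and 4.49 in wild type discs, all group means within background.

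CR33942, placed between Vps51, which encodes a tethering factor of endosome to Golgi transport, and the heparan sulfate sulfotransferase gene Hs3st-A, had the opposite sign. It read 5.27 and 5.39 in LID RNAi discs, against 4.67 and 4.72 in GFP RNAi discs and 4.7 and 4.64 in wild type discs. The control arrays all lay within background and both LID RNAi arrays above it, so the size of the change is not certain. It was 0.64 ± 0.08 (SE) against GFP RNAi (limma adjusted p = 0.0712, and 0.0448 with the restriction to brighter probe sets). The restriction uses the mean over the 6 arrays, here 4.9, which exceeds background only through the LID RNAi arrays. The restricted call thus rests on a filter met through the values it tests, and adds no support. Hs3st-A stayed within background at 2.6, 2.62 and 2.61 in LID RNAi, GFP RNAi and wild type, and Vps51 differed by 0.21 from GFP RNAi (adjusted p = 0.54).

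The other members named for this comparison did not pass. asRNA:CR33945 differed by -0.92 ± 0.18 (SE, adjusted p = 0.156), lncRNA:CR32368 by -0.61 ± 0.25 (adjusted p = 0.442) and lncRNA:CR32690 by -0.57 ± 0.23 (adjusted p = 0.426). lncRNA:CR43632 stood at 0.61 ± 0.36, where LID RNAi replicate 2 read 6.07 and the other 5 arrays 4.78 to 5.11. lncRNA:CR34047 stood at 0.51 ± 0.17, where only LID RNAi replicate 2, at 5.19, lay above background. Its dimmer probe sets differed by 0.06 and 0.03 and lay within background on all arrays.

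The largest positive difference, 0.99 ± 1.12 for lncRNA:CR33948 (adjusted p = 0.785), came with a wide spread. CR33948 read 6.09 and 6.43 on the LID RNAi arrays, 6.99 and 3.56 on those of GFP RNAi and 6.95 and 7.19 on those of wild type. A single array, GFP RNAi replicate 2, thus lay within background and 2.53 below the lowest of the other 5, the widest such gap among the 88 genes. Without that array the difference from GFP RNAi was -0.73 (adjusted p = 0.519), so its direction rests on it. The next widest gaps were 0.96 for CR43632, 0.76 for lncRNA:CR9162, 0.75 for asRNA:CR31514 and 0.71 for lncRNA:CR43126, each on LID RNAi replicate 2. CR9162 and CR43126 were picked here after their values were seen.

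The comparison of LID RNAi with wild type uses discs without a hairpin in the labels. Here 6 of the 88 genes passed (6.82%), 2 of them higher and 4 lower, against 2.34% of all probe sets (0.852% higher and 1.49% lower). The genes that rose were asRNA:CR42871 and CR33942, and those that fell were CR32368, CR33945, lncRNA:CR32027 and CR33938. At an unadjusted p under 0.05 the count was 11 (12.5%), against 16.9% of all probe sets, and 4 members changed by at least 1 (4.55%), against 3.91%. The median over the 88 genes was 0.03, against -0.01 over all probe sets. In the same comparison the median change was 0.57 for haemocyte, 0.43 for muscle, 0.49 for salivary gland and -0.91 for gut markers, and their part was not tested.

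**Figure D3:**
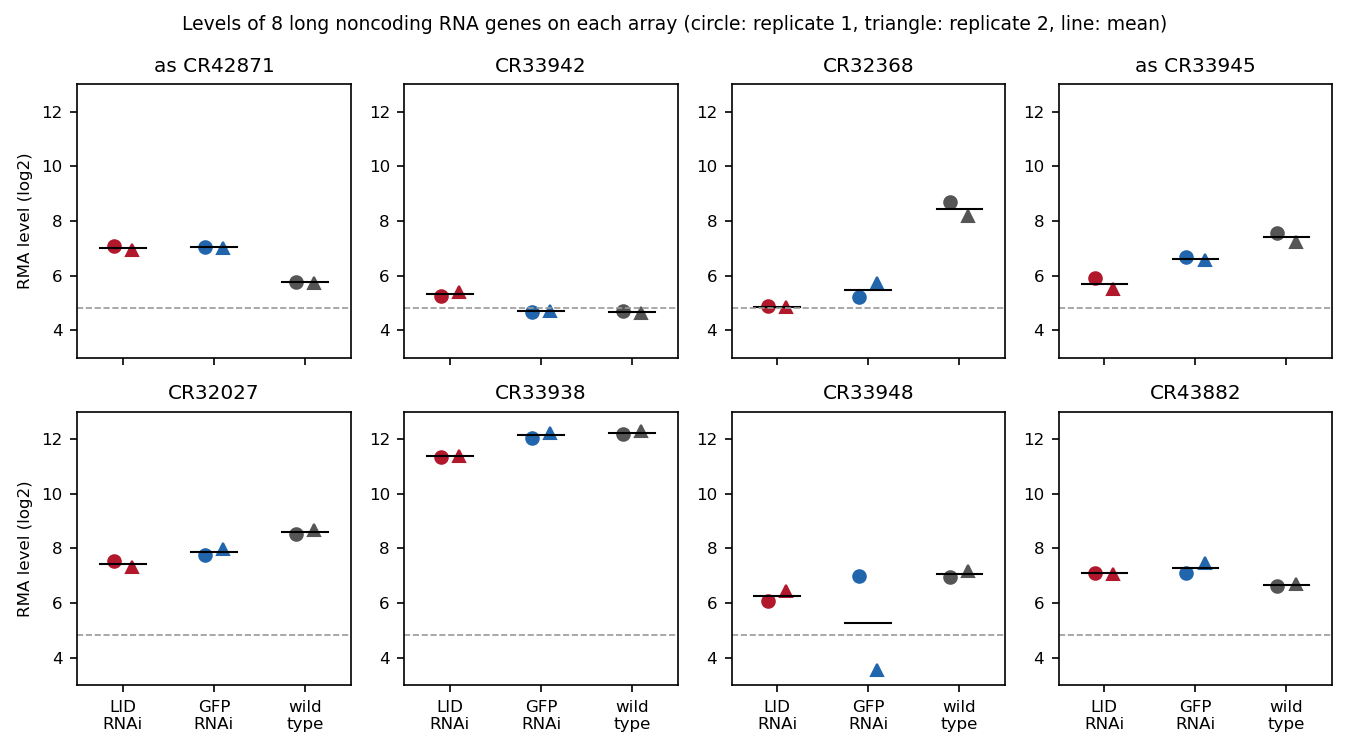
RMA level in log2 (y axis) of 8 genes on each array, by group (x axis), with circles for replicate 1, triangles for replicate 2, a line at each group mean and the background level dashed. For CR33938 and CR33942 both LID RNAi arrays lie outside the 4 control arrays, whereas for asRNA:CR42871 and CR32368 both wild type arrays lie outside the 4 RNAi arrays.

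CR32368, which lies between Tmem43 and syd, the gene of a kinesin cargo adaptor, showed the widest difference of all members. It read 4.88 and 4.84 in LID RNAi discs, against 5.21 and 5.73 in GFP RNAi discs and 8.7 and 8.17 in wild type discs. Levels in LID RNAi thus lay just above background, and both RNAi groups lay far below wild type without overlap. It fell by 3.58 ± 0.25 (SE) against wild type, to 8.39% of that level (limma adjusted p = 0.0112). The call ended without LID RNAi replicate 2 (adjusted p = 0.0586), wild type replicate 1 (0.0771) or wild type replicate 2 (0.0648). Neither neighbour passed: Tmem43 differed by -0.06 and syd by -0.45 (adjusted p = 0.808 and 0.232).

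The antisense genes CR42871 and CR33945 moved in opposite directions against wild type. CR42871, which overlaps CG6650 and CG6661 in part, read 7.07 and 6.95 on the LID RNAi arrays, 7.05 and 7.03 on those of GFP RNAi and 5.76 and 5.75 on those of wild type. The RNAi groups overlapped each other and lay above both wild type arrays. It rose by 1.26 ± 0.08 (SE) against wild type, 2.39-fold (limma adjusted p = 0.00846), a call that ended without wild type replicate 1 or 2 (adjusted p = 0.0798 and 0.0743). The overlapped genes did not pass, CG6650 at 0.25 and CG6661 at 0.18 (adjusted p = 0.298 and 0.691), and the levels of CG6661 lay within background.

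CR33945 overlaps betaGlu, which encodes a beta-glucuronidase. It read 5.9 and 5.5 in LID RNAi discs, against 6.67 and 6.57 in GFP RNAi discs and 7.55 and 7.25 in wild type discs, so the 3 groups did not overlap and GFP RNAi lay between the other two. It fell by 1.7 ± 0.18 (SE) against wild type, to 30.7% (limma adjusted p = 0.026). The call held without LID RNAi replicate 1 (adjusted p = 0.0393) and ended without LID RNAi replicate 2 (0.0666), either GFP RNAi array (0.093), wild type replicate 1 (0.154) or wild type replicate 2 (0.11). For betaGlu the difference was -0.57 ± 0.21 (SE, adjusted p = 0.278), with levels of 10.2 in LID RNAi discs, 10.52 in GFP RNAi discs and 10.77 in wild type discs.

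CR32027 lies within Indy, a citrate transporter gene known for its link to lifespan, next to the catalase gene Cat. It read 7.54 and 7.31 on the LID RNAi arrays, 7.76 and 7.97 on those of GFP RNAi and 8.52 and 8.69 on those of wild type, again with GFP RNAi between the other groups and no overlap. It fell by 1.18 ± 0.13 (SE) against wild type, to 44.2% (limma adjusted p = 0.0301). The call ended without any single array, with adjusted p between 0.051 and 0.164. Indy differed by -0.15 and Cat by -0.21 (adjusted p = 0.447 and 0.388), so neither the gene that holds CR32027 nor its flank passed.

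CR33938 fell by 0.88 ± 0.1 (SE) against wild type, to 54.4% (limma adjusted p = 0.0294), and CR33942 rose by 0.66 ± 0.08 (adjusted p = 0.0346). The size of the CR33942 change is not certain, with wild type within background. Its adjusted p was 0.0521 with the intensity trend and robust prior. Both calls ended without any single array, with adjusted p between 0.0669 and 0.166 for CR33938 and between 0.0575 and 0.196 for CR33942. The count of 6 itself became 4 without LID RNAi replicate 1 (CR42871, CR32368, CR33945 and CR31514), 1 without LID RNAi replicate 2, 2 without either GFP RNAi array and 0 without either wild type array. At an unadjusted p under 0.05 the count was 9 without wild type replicate 1 and 7 without wild type replicate 2, where 11.7% and 11.8% of all probe sets passed. Calls over all probe sets fell alongside, to 324 without LID RNAi replicate 1, 128 without LID RNAi replicate 2, 99 when either GFP RNAi array was dropped and 24 or 27 when wild type replicate 1 or 2 was, against 439 with all arrays. These fits take the spread of a lone array from the groups that keep 2. Changes of the 6 genes kept their sign in all of them.

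**Figure D4:**
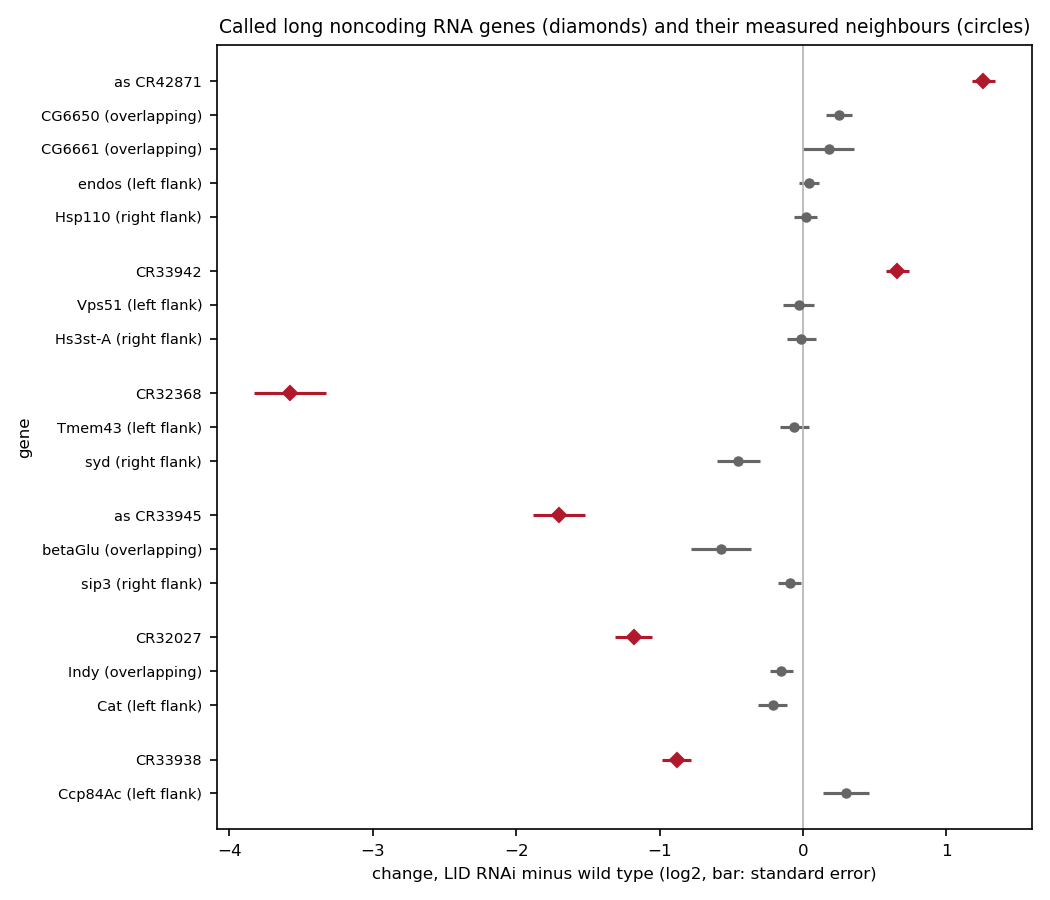
Change between LID RNAi and wild type (x axis, log2, bars for the standard error) of the 6 genes past the threshold (diamonds) and of the measured genes that overlap or flank them (circles). The diamonds run from -3.58 to 1.26, and the circles from -0.57 for betaGlu to 0.3 for Ccp84Ac.

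Further members named for this comparison did not pass. lncRNA:CR42646, lncRNA:CR43632, lncRNA:iab8 and lncRNA:CR43654 stood at 0.76, 0.57, 0.45 and 0.44 (adjusted p between 0.504 and 0.565). CR33948, CR32690, lncRNA:CR43337 and CR31514 stood at -0.81, -0.75, -0.65 and -0.62 (adjusted p between 0.21 and 0.775). The dimmer probe set of CR43337, near background, differed by 0.05. CR31514 overlaps the ribosomal protein gene RpS29 and CG12947, which differed by -0.03 and -0.89 from wild type (adjusted p = 0.855 and 0.0751), and lies next to the metallothionein gene MtnA. It read 7.76 and 7 in LID RNAi discs, against 7.85 and 7.88 in GFP RNAi discs and 7.94 and 8.06 in wild type discs. Without LID RNAi replicate 1 it differed by -0.99 and passed (limma adjusted p = 0.0468), but it differed by only -0.24 (0.428) without LID RNAi replicate 2, where 3′ and 5′ control signals lay furthest apart.

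GFP RNAi against wild type compares groups without a knockdown of lid, and it shares arrays with the comparisons above. Of the 88 genes 2 passed (2.27%), 1 higher and 1 lower, against 0.863% of all probe sets (0.437% higher and 0.426% lower). CR42871 rose by 1.29 ± 0.08 (SE), 2.44-fold (limma adjusted p = 0.0123). CR32368 fell by 2.97 ± 0.25, to 12.8% of wild type (adjusted p = 0.0251). At an unadjusted p under 0.05 there were 9 (10.2%), against 11.4% of all probe sets. The call for CR42871 held without either LID RNAi array (adjusted p = 0.0285) and ended without GFP RNAi replicate 1 or 2 (0.116 and 0.154) or wild type replicate 1 or 2 (0.111 and 0.102). That of CR32368 ended without any single array, with adjusted p between 0.068 and 0.154. The count of 2 thus became 1 without either LID RNAi array and 0 without any other array. Over all probe sets, 162 calls became 90 without either LID RNAi array, 4 without either GFP RNAi array and 17 or 16 without wild type replicate 1 or 2.

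The members that did not pass here included CR33945 and CR32027, at -0.78 ± 0.18 and -0.74 ± 0.13 (SE, adjusted p = 0.203 and 0.13). CR43337 stood at -0.64, and at -0.05 on its dimmer probe set. CR33948 stood at -1.8, which was -0.08 without GFP RNAi replicate 2. Higher readings were those of lncRNA:CR43882 and lncRNA:noe, at 0.62 ± 0.14 and 0.38 ± 0.15 (adjusted p = 0.207 and 0.462), and of CR42646 and lncRNA:CR43836, at 0.74 and 0.48. For CR43836 the sign turned without GFP RNAi replicate 2 (-0.16) or wild type replicate 1 (-0.08). CR43882 read 7.1 and 7.07 on the LID RNAi arrays, 7.1 and 7.48 on those of GFP RNAi and 6.64 and 6.7 on those of wild type. Both RNAi groups thus lay above wild type without overlap.

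Taking both controls at once, 0 of the 88 genes passed against each of them in the same direction, where 0.325% of all probe sets did. At an unadjusted p under 0.05 in both, 4 did (4.55%), against 6.88% of all probe sets. With the restriction to brighter probe sets, CR33938 and CR33942 passed against both controls, and with the intensity trend and robust prior CR33938 did, where 0.929% and 0.863% of all probe sets did so. CR33942 met the restriction only through its LID RNAi arrays, so its restricted calls add no support. Both LID RNAi arrays lay outside the range of all 4 control arrays for 15 members (17%), against 23.5% of all probe sets. Both wild type arrays lay outside all 4 RNAi arrays for 11 members (12.5%), against 23.6%. These shares lie below those of all probe sets.

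Several of the called genes share an older name, which the rule did not use. A pncr synonym in RefSeq is carried by 5 members. It is a name for putative noncoding RNAs, and the genes are CR33938, CR33942, CR33945, CR33948 and CR42871. Of these, 4 passed in LID RNAi against wild type, where 2.34% of all probe sets did, each in a call that ended without at least 1 array, and the fifth, CR33948, is the gene with a single low GFP RNAi array. The group was noticed after the values were known and is given without a test. Apart from CR42871, all of the pncr genes are read by probe sets with the suffix _s_at, which the manufacturer uses for probes shared by more than 1 transcript, as are 11 of the 88 members. Of the called genes, 3 lie between genes, 2 overlap a coding gene in part and 1 lies within one.

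Members that overlap a microRNA gene did not pass in any comparison. Over all probe sets, 0.469% and 2.34% passed in LID RNAi against GFP RNAi and wild type. In GFP RNAi against wild type 0.863% did. At these shares, 0 calls among 7 genes say little about the class. Of the 7 members that overlap a microRNA gene, 4 lay above background in every group. lncRNA:CR31044, the primary transcript of mir-279 and mir-996, which act in the development of sensory organs, read 9.17 and 8.99 in LID RNAi discs, against 8.75 and 8.93 in GFP RNAi discs and 9.16 and 8.94 in wild type discs. It differed by 0.24 ± 0.13 from GFP RNAi and 0.03 ± 0.13 from wild type (SE, limma adjusted p = 0.549 and 0.937). lncRNA:mimi, which overlaps mir-9381, read 6.46 and 7.33 on the LID RNAi arrays, 6.65 and 6.41 on those of GFP RNAi and 6.49 and 6.79 on those of wild type, with LID RNAi replicate 2 above the rest. CR43836, which spans mir-31b and several coding genes, read 4.7 and 5.83 in LID RNAi discs, against 4.93 and 6.2 in GFP RNAi discs and 4.53 and 5.65 in wild type discs, so replicate 2 was the higher array in each group. The members that overlap mir-10 (lncRNA:CR42651), mir-252 (asRNA:CR17025) and mir-bft (lncRNA:CR43314) lay within background in every group.

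iab8, the long transcript of the bithorax complex that lies between abd-A and Abd-B and overlaps mir-iab-4 and mir-iab-8 in the RefSeq table, was read by 5 probe sets. The brightest gave 5.78 and 6.43 on the LID RNAi arrays, 5.7 and 6.03 on those of GFP RNAi and 5.48 and 5.84 on those of wild type, which overlap. The other four lay within background on all 6 arrays, with values between 3.36 and 4.64. The gene is known for its role in the posterior body, and these discs give a level above background in 1 of its probe sets.

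Among the 10 brightest members, those within genes of known function did not pass in any comparison. lncRNA:CR30055 lies within Sin3A, the scaffold of a corepressor complex that is known to bind Lid, and it read 8.49 and 8.4 in LID RNAi discs, against 8.12 and 8.3 in GFP RNAi discs and 8.17 and 8.11 in wild type discs. Both LID RNAi arrays lay above the controls, with differences of 0.23 ± 0.1 and 0.3 ± 0.1 (SE, limma adjusted p = 0.439 and 0.219 against GFP RNAi and wild type). lncRNA:CR42549, within the ubiquitin ligase gene mura, read 11.69 and 11.64 on the LID RNAi arrays, 11.46 and 11.53 on those of GFP RNAi and 11.61 and 11.67 on those of wild type. lncRNA:CR33963, within Tis11, the gene of an mRNA decay factor, read 10.29 and 10.11 in LID RNAi discs, against 10.18 and 10.53 in GFP RNAi discs and 9.76 and 10.39 in wild type discs. For both of these genes, differences between groups stayed within 0.28 and none passed.

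Other bright members were asRNA:CR43964, asRNA:CR43944, asRNA:CR31845 and lncRNA:CR43242. CR43944, within the pantothenate kinase gene fbl, read 9.27 and 8.9 on the LID RNAi arrays, 9.33 and 9.09 on those of GFP RNAi and 9.42 and 9.51 on those of wild type, where it differed by -0.38 between LID RNAi and wild type (adjusted p = 0.342). CR43242 read 10.15 and 9.92 in LID RNAi discs, against 9.79 and 10.15 in GFP RNAi discs and 9.8 and 9.53 in wild type discs. CR43964 and CR31845 differed by -0.03 and 0.18 from GFP RNAi and by 0.11 and 0.16 from wild type. None of these passed, and their groups overlapped in the comparison with GFP RNAi.

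Members with known roles in the nervous system lay above background and did not pass. lncRNA:cherub, which segregates asymmetrically in neural stem cells, read 5.77 and 5.95 on the LID RNAi arrays, 5.77 and 5.67 on those of GFP RNAi and 5.74 and 5.63 on those of wild type. noe, a noncoding RNA of the nervous system that lies within blot, read 6.04 and 6.14 in LID RNAi discs, against 6.18 and 6.5 in GFP RNAi discs and 6.1 and 5.82 in wild type discs. The differences between groups were at most 0.38 in size. The heat shock locus transcript alphagamma-element:CR32865, placed between Hsp70Ba and Hsp70Bbb and picked after its values were seen, read 6.75 and 7.84 on the LID RNAi arrays, 7.11 and 7.99 on those of GFP RNAi and 7.08 and 7.28 on those of wild type. Its arrays overlapped between all groups, and replicate 2 was the higher array in each group. The ecdysone-induced antisense gene Eig63F-2, picked in the same way, lay within background on all 6 arrays.

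Genes with several probe sets show how far the readings of 1 gene agree. For CR42862 the second probe set read 10.32 and 8.62 in LID RNAi discs, against 10.18 and 9.86 in GFP RNAi discs and 10 and 9.88 in wild type discs. The third read 8.15 and 7.47 in LID RNAi, against 8.17 to 8.2 on the 4 control arrays. LID RNAi replicate 2 was thus the lowest array on all 3 probe sets, by different amounts. CR43882 gave nearly the same differences on both of its probe sets, 0.62 and 0.65 between GFP RNAi and wild type (adjusted p = 0.207 and 0.273). For lncRNA:CR43771, between the aquaporin genes Drip and Prip, the dimmer probe set read 4.54 and 5.92 in LID RNAi and 4.01 to 4.56 on the control arrays, whereas the brighter one read 5.44 to 5.77 on all 6. The 6 called genes have 1 probe set each, so no second reading of them is at hand.

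**Figure D5:**
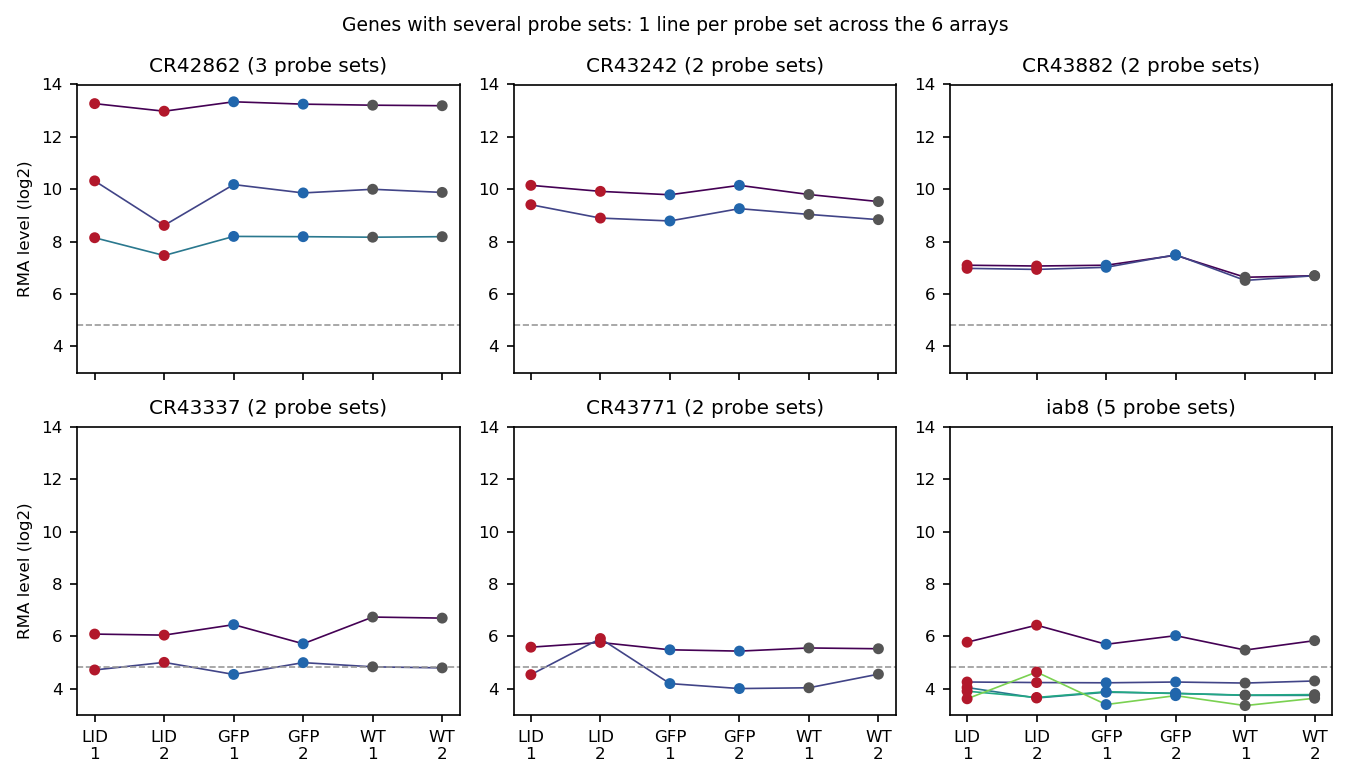
RMA level in log2 (y axis) on the 6 arrays (x axis, LID RNAi, GFP RNAi and WT for wild type, replicates 1 and 2) for 6 genes with several probe sets, 1 line per probe set, with the background level dashed. The lines of CR42862 dip on LID RNAi replicate 2, and 4 of the 5 lines of iab8 stay below the dashed line.

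Coding neighbours of the 88 genes were looked at in the same fit. Among 132 measured neighbours, 3 passed in LID RNAi against GFP RNAi (2.27%), 4 against wild type (3.03%) and 0 in GFP RNAi against wild type, beside 0.469%, 2.34% and 0.863% of all probe sets. At an unadjusted p under 0.05 in limma, 22 neighbours passed in LID RNAi against GFP RNAi (16.7%) and 25 against wild type (18.9%). In GFP RNAi against wild type 13 did (9.85%). The shares over all probe sets were 12.4%, 16.9% and 11.4%. At the 4 neighbours past the adjusted threshold, the member itself did not pass. CG13526, which flanks asRNA:CR30267, read 9.64 and 8.38 on the LID RNAi arrays, 4.48 and 4.57 on those of GFP RNAi and 4.5 and 5.06 on those of wild type. CR30267 read 4.31 and 4.6 in LID RNAi discs, against 4.03 and 4.36 in GFP RNAi discs and 4.28 and 4.33 in wild type discs, within background on every array. CG13526 rose by 4.48 ± 0.45 (SE) against GFP RNAi and 4.23 ± 0.45 against wild type (limma adjusted p = 0.049 and 0.0274). The call against GFP RNAi ended without any single array (changes of 3.86 to 5.11), where few calls over all probe sets remained. That against wild type ended without either GFP RNAi array or either wild type array (changes of 3.95 to 4.51). The rise of the coding gene thus came with no level above background in its noncoding neighbour.

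The gene tpr, which flanks lncRNA:CR9284, rose by 1.14 against GFP RNAi and 1.82 against wild type (limma adjusted p = 0.0436 and 0.00846), and CR9284 was within background on all arrays. hng3, which flanks lncRNA:CR43785, fell by 0.98 and 0.82 (adjusted p = 0.0338 and 0.0191), and CR43785 differed by -0.03 and -0.21. obst-E, a chitin-binding cuticle gene that flanks asRNA:CR31912, rose by 1.44 against wild type (adjusted p = 0.0192), while CR31912 lay within background in every group. Against GFP RNAi, few calls over all probe sets remained when any single array was left out. There the calls of tpr and hng3 ended without any single array (changes of 1.05 to 1.23 and -1.01 to -0.94). Against wild type, that of obst-E did too (changes of 1.27 to 1.62). That of tpr ended without either wild type array, and that of hng3 held only without LID RNAi replicate 1. Conversely, none of the measured neighbours of the 6 called members passed.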

How the data were processed

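Values are log2 levels per probe set, deposited by the authors, who made them with RMA according to the submitters' processing notes, in a version not given in the sources used here. They were not scaled further. Of 18952 probe sets, 183 controls of the manufacturer were set aside and 18769 tested. Symbols came from the platform's annotation. All 6 arrays entered a single limma fit (version 3.58.1, R 4.3.3) of group means, with 3 residual degrees of freedom and a prior of 1.77. P-values are two-sided and adjusted by Benjamini-Hochberg over the 18769 probe sets, at a threshold of 0.05. The fit was tested on simulated data. Members, lists and the background level (median of the bacterial probe sets 3.27) were chosen with earlier results of these data known. Genes are named that passed with arrays that do not overlap (up to 12 per direction and comparison), that changed most without passing while above background in a group (up to 4), that were among the 10 brightest, or that stand on a list of known roles. The number of arrays limits the precision. Neighbours overlap or flank a member in the RefSeq table, used for names and order only. Alternatives were arrays left out in turn, a replicate block, other scalings, a restriction to probe sets above background, an intensity trend with a robust prior, fits of the compared arrays alone and means over a gene's probe sets. No motif search was made.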

Additional observations from a re-analysis of the deposited data

How the results depend on the processing

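Alternatives changed 1 choice at a time, except that the intensity trend and the robust prior were set together. Median shifts, quantile normalization and averaging the probe sets of a gene left the counts, with the same genes, at 0 for LID RNAi against GFP RNAi, at 6 for LID RNAi against wild type and at 2 for GFP RNAi against wild type. With replicate number as a block the counts were 0, 3 and 1, and with only the arrays compared 0, 2 and 1. Over all probe sets calls fell alongside, from 88, 439 and 162 to 12, 200 and 41 with the block. With only the arrays compared they fell to 3, 99 and 90. Restricting to brighter probe sets gave 2 against GFP RNAi and 2 against both controls, where CR33942 met the restriction only through its LID RNAi arrays. The intensity trend with the robust prior gave 1 and 1. The cause was not tested. Leaving out 1 array gave 0 to 4 for LID RNAi against wild type, 0 to 1 for GFP RNAi against wild type and 0 for the others. Signs turned for CR33948 in LID RNAi against GFP RNAi without GFP RNAi replicate 2 (-0.73, the range without 1 array being -0.73 to 2.7) and for CR43836 in GFP RNAi against wild type without GFP RNAi replicate 2 (-0.16) or wild type replicate 1 (-0.08), where the range without 1 array was -0.16 to 1.11. With the replicate block the calls of CR32027, CR33938 and CR33942 in LID RNAi against wild type ended (adjusted p = 0.0631, 0.0512 and 0.0694 in limma), as did that of CR32368 in GFP RNAi against wild type (0.0736). Same-numbered arrays deviated together with r = 0.3, 0.22 and 0.06 over probe sets for the pairs of groups, but the labels do not say that the numbers pair samples.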

Other observations

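Long noncoding RNA genes whose symbol lacks the prefix, or that share a probe set with another gene, lie outside the 88. The snoRNA host genes Uhg4 and Uhg3 passed in no comparison. Uhg4 had 12.96 and 12.9 on the LID RNAi arrays, 12.87 and 12.86 on those of GFP RNAi and 12.87 and 12.9 on those of wild type. Uhg3 had 10.42 and 10.2 in LID RNAi discs, against 10.27 and 10.29 in GFP RNAi discs and 10.31 and 10.35 in wild type discs. Of 9 probe sets shared between a long noncoding RNA and another gene, the one for CR43836 and CG10962 read 8.63 and 7.53 on the LID RNAi arrays, 8.41 and 8.24 on those of GFP RNAi and 9.28 and 9.55 on those of wild type. It stood at -1.34 ± 0.38 (SE) in LID RNAi against wild type (limma adjusted p = 0.18) and at -1.09 ± 0.38 in GFP RNAi against wild type (adjusted p = 0.391), so neither passed. Both shared probe sets named here were picked after their values were seen, and one of those for CR43958 and Tdg stood at 0.86 ± 0.23 against GFP RNAi (adjusted p = 0.259) and at 0.94 ± 0.23 against wild type (adjusted p = 0.142).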
